A study of Mus musculus with 8 samples.

Results

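The 10 genes Shank1, Shank2, Shank3, Dlg1, Dlg2, Dlg3, Dlg4, Homer1, Homer2 and Homer3 encode the core scaffold proteins of the excitatory postsynaptic density. They were followed through every non-control probe that carries one of these gene names on the array, which gave 22 probes out of 41174. Of these, 21 probes, with at least 1 for each of the 10 genes, passed the filter on dim signal, as did 27982 probes in all. RNA came from the whole hippocampus of 4 BTBR T+ Itpr3tf/J mice and 4 C57BL/6J controls (B6), 1 mouse per array, all male, 5 months old and without drug treatment. BTBR is an inbred strain used as a model of autism-like behavior, and B6 is the usual comparison strain. The labels give C57BL/6J as the strain background of both groups, while title, source and genotype separate them. As the strains differ at many loci, a difference between them cannot be assigned to 1 allele.

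Each spot was read as 1-color intensity, and values are normalized log2 intensities, so that a difference of 1 is a doubling of the linear signal. A difference is BTBR minus B6 throughout. Probes differ in how well they hybridize, so that intensities of different probes say nothing on which gene is expressed more. The 8 arrays sat on 2 slides, with replicates 1 and 2 of both strains on slide 1 and replicates 3 and 4 on slide 2. Between 57.4% and 72.3% of the probes were well above background on an array, and no spot was saturated. The number of arrays limits the precision, and the smallest p that an exact permutation test of 4 against 4 arrays can give is 0.0286.

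BTBR replicates 1 and 2, both on slide 1, stood apart from the other 6 arrays in marker genes of hippocampal fields and of neighboring regions. The mean log2 level of the 6 dentate granule cell markers was 10.29 and 9.32 on these arrays, 11.36 and 11.43 on BTBR replicates 3 and 4, and between 10.86 and 12.23 in B6. The 8 thalamic markers averaged 13.41 and 11.19 on them and between 10.41 and 10.71 on the other 6 arrays. The 6 tested striatal markers averaged 12.11 and 14.04 on them and between 10.50 and 10.86 on the other arrays except B6 replicate 2, which reached 12.63. The 6 glutamatergic neuron markers averaged 13.83 and 13.56 on them and between 14.30 and 14.45 elsewhere, and the 8 general neuron markers averaged between 15.44 and 15.61 on all 8 arrays, although limma called 3 of these 8 lower in BTBR (Nefl, Syt1 and Map2). In whole tissue, fewer cells of a type and less RNA per cell cannot be told apart. Main results on the scaffold probes are given by slide or without these arrays as well, and the part that tissue makeup has in the results was not tested.

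The postsynaptic density is a protein mesh under the membrane of the excitatory synapse. Its Dlg proteins, the membrane-associated guanylate kinases, hold glutamate receptors and adhesion molecules at the membrane, and Dlg4 encodes PSD95, the best known of them. SAPAP proteins join the Dlg layer to the Shank proteins below, and Shank proteins bind Homer, which reaches to metabotropic glutamate receptors and to calcium release channels of the endoplasmic reticulum. Loss of Shank3 is an established cause of Phelan-McDermid syndrome, which includes autism.

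The 60-base probes that carry the main comparisons are shown by 30 bases each, 5′ to 3′ as the array files give them. These are the first 30 bases, except for Homer1 A_51_P387160, which is shown by its last 30. Capitals mark stop codons in any forward reading frame within the bases shown, and in the probe Homer1 A_51_P387160 they mark its ATG. The probes are those of Shank3, of Homer1 from the start of the gene to its end, and of Dlg2 where probes of 1 gene differed.
Shank3 A_51_P115626: acatttacctgtgggtttttggttctgttc
Homer1 A_51_P387159: aagtgctatattctccgcgcaaccttttca
Homer1 A_51_P387160: cattgggcaaaATGggggagcaacctatct
Homer1 A_52_P37991: tcatTAGacccTAATAGaccaagttatatg
Homer1 A_52_P151211: tcaaacttcacaaggctatatttTGAactg
Dlg2 A_52_P1131821: aacctgtccTAGcTAGccaactctattcta
Dlg2 A_52_P89049: acacttcagtctgTAAatattcttcctcac
Over their whole length, 5 of the 22 probes hold a stop codon in each of the 3 forward frames, Dlg2 A_52_P1131821 and Homer1 A_52_P37991 among them. The coordinates of 4 of the 22 probes span more than 60 bases of the genome, so that these probes cross from 1 exon to another. Positions are on mm9, and whether a probe lies in coding sequence or in a UTR was not determined here.

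The Shank3 probe read higher in the BTBR hippocampus. It was the only one of the 21 tested scaffold probes that limma called at an adjusted p under 0.05. The array holds 1 Shank3 probe, so that no second probe of the gene could be set beside it. Among all tested probes limma called 7.61%, 3.31% higher and 4.3% lower in BTBR. The rank product called 2 of the 21, Shank3 and Homer1 A_52_P37991, against 3.95% of all probes (1.66% higher in BTBR). The rank product call of Shank3 (pfp = 0.0312) held without B6 replicate 1 or B6 replicate 4 and was lost when any one of the other 6 arrays was left out, and with the processed signal. Of the 21 probes, 12 were higher and 9 lower in BTBR without regard to a test, and 2 had an unadjusted limma p under 0.05, against 18.5% of all probes. The median difference was 0.04 over the 21 probes and 0.01 over all probes. The median size of a difference, regardless of sign, was 0.16 over the 21 and 0.10 over all. By family, 1 of 3 Shank probes, 6 of 10 Dlg probes and 5 of 8 Homer probes were higher in BTBR.

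The Shank proteins are the deepest layer of the scaffold and link it to actin. The Shank3 probe A_51_P115626 (transcript NM_021423, chr15:89390449-89390508) read 14.24, 14.17, 14.20 and 14.33 on the B6 arrays and 15.07, 14.81, 14.91 and 14.75 on the BTBR arrays, in the order of replicates 1 to 4. Every BTBR array lay above every B6 array, a separation found for 14.2% of all tested probes (6.91% with BTBR higher) and for 1 of the 21 scaffold probes. The means were 14.24 ± 0.07 in B6 and 14.88 ± 0.14 in BTBR (SD, n = 4 each). The log2 difference was 0.65 with an SE of 0.08 (95% confidence interval 0.46 to 0.83, limma adjusted p = 0.0012), which is 1.57-fold. The exact permutation p was 0.0286, the smallest possible. A difference of at least this size in either direction was seen for 4.11% of all probes.

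The rise of Shank3 was seen on both slides, where limma called 8.66% of all probes within slide 1 and 3.7% within slide 2. It was 0.73 within slide 1 (limma adjusted p = 0.0123) and 0.56 within slide 2 (limma adjusted p = 0.0499), and the difference between slides had an unadjusted limma p of 0.33. On slide 2 the thalamic markers lay between 10.45 and 10.71 in both strains, and the striatal markers were at 10.86 and 10.50 in BTBR and 10.55 and 10.74 in B6. Other lists still stood apart there, with astrocyte markers at 13.73 and 13.89 in BTBR and 14.15 and 14.16 in B6, and CA3 markers at 14.72 and 14.57 in BTBR and 14.82 and 15.22 in B6. Without BTBR replicates 1 and 2 the Shank3 difference was 0.60 (limma adjusted p = 0.00693).

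Shank1 and Shank2 did not pass the test. The Shank1 probe A_51_P172889 (NM_001034115, chr7:51609528-51609587) read 8.71, 8.66, 8.75 and 8.60 on the B6 arrays and 8.52, 8.32, 9.02 and 8.73 on the BTBR arrays, with a difference of -0.03 (limma adjusted p = 0.927) that was -0.26 within slide 1 and 0.19 within slide 2. The Shank2 probe A_52_P548470 (NM_001113373, chr7:151606944-151607003) read 8.39, 8.55, 8.42 and 8.43 on the B6 arrays and 8.35, 8.40, 8.38 and 8.53 on the BTBR arrays, also with a difference of -0.03 (limma adjusted p = 0.844). For both genes the arrays of the strains overlapped. The strain difference of Shank3 exceeded that of Shank1 by 0.68 and that of Shank2 by 0.68 when the differences were taken within each array. This contrast was set up with the Shank3 value known and is given as a description, with no test.

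The 3 genes of another name whose probes followed the Shank3 probe most closely over the 8 arrays were Ganc (Pearson r = 0.994), Mogat2 (r = 0.992) and Rnf170 (r = 0.990). Their strain differences were 0.33, 0.78 and 0.70. These correlations describe 8 arrays of 2 strains and include the strain difference itself.

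Shank3 was also set beside its neighbors on chromosome 15, in a window of 500 kb on each side that was chosen after values had been seen. The window held 34 other tested probes with 25 gene names, of which limma called 3, where it called 7.61% of all tested probes. Syt10, a synaptotagmin gene 222.5 kb away, rose by 2.29 (limma adjusted p = 1.73e-04), and Cpt1b, a carnitine palmitoyltransferase gene 143.6 kb away on the other side, rose by 0.37 (limma adjusted p = 0.0414). Rabl2, which encodes a small GTPase and lies 24.3 kb away, fell by 0.42 (limma adjusted p = 0.0103). The nearest probes on either side, Acr at -0.14 and Arsa at 0.06, were not called.

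The Dlg family forms the membrane-near layer of the scaffold, and none of its 10 tested probes was called by limma. Dlg4, which encodes PSD95, was read by 2 probes. Dlg4 A_52_P153721 (NM_007864, chr11:69858304-69858363) read 10.74, 10.67, 10.54 and 10.66 on the B6 arrays and 10.29, 10.28, 10.71 and 10.68 on the BTBR arrays, with a difference of -0.16 (limma adjusted p = 0.531). Both BTBR arrays of slide 1 lay below all other arrays, and those of slide 2 lay within the B6 range. The difference was -0.42 within slide 1 (limma adjusted p = 0.0282) and 0.10 within slide 2. Dlg4 A_51_P302256 (chr11:69853342-69854879, across an intron) read 9.56, 9.47, 9.68 and 9.54 on the B6 arrays and 9.31, 9.48, 9.86 and 9.68 on the BTBR arrays, with a difference of 0.02 (limma adjusted p = 0.941).

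Dlg3 encodes SAP102, a relative of PSD95 that is prominent in young synapses. Its probe A_51_P331900 (NM_016747, chrX:98013644-98013703) read 12.91, 12.70, 12.65 and 12.91 on the B6 arrays and 12.29, 12.37, 12.90 and 12.81 on the BTBR arrays. Again the BTBR arrays of slide 1 were the lowest of the 8. The difference of -0.20 (95% confidence interval -0.53 to 0.13) did not pass the test (limma adjusted p = 0.544), and it was -0.47 within slide 1 and 0.07 within slide 2.

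Dlg1 encodes SAP97, which takes part in the transport of glutamate receptors. All 4 of its probes were higher in BTBR, by 0.05 to 0.24, and none passed the test. The probe of highest intensity, A_52_P36731 (NM_007862, chr16:31873350-31873409), read 12.30, 12.69, 12.48 and 12.38 on the B6 arrays and 12.45, 13.26, 11.92 and 12.41 on the BTBR arrays, and the highest and the lowest of the 8 values were both from BTBR (difference 0.05, limma adjusted p = 0.945, with 0.36 within slide 1 and -0.26 within slide 2). The largest difference was that of A_51_P101858 (NM_007862, chr16:31863262-31863321), which read 9.90, 10.05, 9.95 and 9.55 on the B6 arrays and 10.18, 10.31, 9.97 and 9.97 on the BTBR arrays. The BTBR values were mostly higher with overlap (difference 0.24, limma adjusted p = 0.348). The remaining probes, A_52_P499543 (chr16:31773347-31773406) and A_52_P499541 (chr16:31773479-31773538), both assigned to ENSMUST00000155958, differed by 0.07 and 0.06, and the latter was bright enough to be well above background on all 4 BTBR arrays and 3 of the 4 B6 arrays.

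Dlg2 encodes PSD93, the closest relative of PSD95, and its probes did not move together. A_52_P89049 (NM_011807, chr7:99597105-99597164), the probe of highest intensity, read 13.20, 13.45, 13.42 and 13.20 on the B6 arrays and 13.31, 13.63, 13.20 and 13.29 on the BTBR arrays, with a difference of 0.04 (limma adjusted p = 0.890). A_52_P1131821 (ENSMUST00000129818, chr7:99436618-99436677) read 10.24, 9.87, 10.14 and 10.04 on the B6 arrays and 9.47, 10.08, 9.25 and 9.39 on the BTBR arrays. On this probe BTBR replicates 1, 3 and 4 lay below all B6 arrays and BTBR replicate 2 lay within the B6 range. Its difference of -0.52 did not pass the test over all arrays (limma adjusted p = 0.124, exact permutation p = 0.0857). It was -0.28 within slide 1 (limma adjusted p = 0.454) and -0.77 within slide 2 (limma adjusted p = 0.131), not called on either. With 1 array left out it ranged from -0.70 to -0.43. Among these it was called only without BTBR replicate 2, at -0.70 (limma adjusted p = 0.00548). It was also called without BTBR replicates 1 and 2, at -0.75 (limma adjusted p = 0.01).

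The strain difference of the first of these Dlg2 probes exceeded that of the second by 0.56 within arrays, with an SE of 0.14 (limma adjusted p = 0.0302, exact permutation p = 0.0571). This was the 1 pair called among 19 pairs of scaffold probes from 5 genes, where 8.69% of all such pairs on the array were called. The call held without B6 replicate 2 or BTBR replicate 2 and was lost when any one of the other 6 arrays was left out (0.47 to 0.67 over all 8 omissions, limma adjusted p from 0.0089 to 0.0916). The third tested Dlg2 probe, A_51_P297185 (NM_011807, chr7:99275116-99435022, across introns), read 9.32, 9.48, 9.63 and 9.60 on the B6 arrays and 9.27, 9.37, 9.20 and 9.62 on the BTBR arrays (difference -0.14, limma adjusted p = 0.578). The probe A_52_P236484 (ENSMUST00000152139, chr7:99146612-99146671) was not well above background on any of the 8 arrays and was not tested. Seen from that untested probe, A_51_P297185 lay at 128.5 kb, A_52_P1131821 at 290.0 kb and A_52_P89049 at 450.5 kb.

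Homer proteins link Shank to group I metabotropic glutamate receptors, and Homer1 also has a short form that neuronal activity induces and that cannot cross-link its partners. All 4 Homer1 probes were higher in BTBR, by 0.12 to 0.93, and none was called by limma. A_52_P37991 (ENSMUST00000102752, chr13:94129858-94129917) read 9.73, 10.14, 11.60 and 10.66 on the B6 arrays and 11.52, 12.31, 11.17 and 10.84 on the BTBR arrays, the widest spread of the 4. The strains overlapped, with B6 replicate 3 above BTBR replicates 1, 3 and 4. The means were 10.53 ± 0.81 in B6 and 11.46 ± 0.63 in BTBR (SD, n = 4 each), a difference of 0.93 (95% confidence interval -0.03 to 1.90, limma adjusted p = 0.291, exact permutation p = 0.143). The rank product, which sets each difference against other probes and not against the spread between mice, called it at a pfp of 0.0124. That call was lost without B6 replicate 1, B6 replicate 2 or BTBR replicate 2.

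By slide, limma called 1 of the 4 Homer1 probes within slide 1 and none within slide 2. For A_52_P37991 the strain difference was 1.99 within slide 1 (limma adjusted p = 0.0200) and -0.12 within slide 2. This contrast between slides did not pass the test (limma adjusted p = 0.411), which no tested probe on the array passed. A_51_P387160 (NM_011982, chr13:94075212-94111724, across an intron) read 9.60, 9.99, 10.24 and 10.01 on the B6 arrays and 10.28, 10.67, 10.15 and 10.09 on the BTBR arrays, with differences of 0.34 over all arrays (limma adjusted p = 0.313), 0.68 within slide 1 (limma adjusted p = 0.0595) and -0.00 within slide 2. A_51_P387159 (NM_011982, chr13:94075013-94075072) read 9.14, 9.40, 9.74 and 9.43 on the B6 arrays and 9.73, 10.07, 9.61 and 9.43 on the BTBR arrays, with 0.28 over all arrays (limma adjusted p = 0.402), 0.63 within slide 1 (limma adjusted p = 0.0633) and -0.06 within slide 2. The 3' probe A_52_P151211 (NM_152134, chr13:94173265-94173324) read 11.78, 12.15, 11.83 and 11.90 on the B6 arrays and 11.93, 12.45, 11.95 and 11.80 on the BTBR arrays, with 0.12 over all arrays (limma adjusted p = 0.739), 0.23 within slide 1 (limma adjusted p = 0.504) and 0.01 within slide 2. Seen from the first probe of the gene, the others lay 0.20, 54.8 and 98.3 kb downstream, and the largest difference belonged to the probe at 54.8 kb. The strain difference of A_52_P37991 exceeded that of A_51_P387159 by 0.65 within arrays, which did not pass the test over all pairs (limma adjusted p = 0.247).

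Homer2 is a long-form Homer protein that can cross-link Shank, and its 3 probes differed between slides in the sign of the strain difference. A_51_P352303 (NM_011983, chr7:88756199-88756258) read 12.91, 12.56, 12.90 and 12.89 on the B6 arrays and 12.37, 11.45, 13.57 and 13.01 on the BTBR arrays. The lowest and the highest values were both from BTBR, with replicates 1 and 2 low and replicates 3 and 4 high (difference -0.21, limma adjusted p = 0.836). A_52_P176573 (chr7:88763566-88769161, across an intron) differed by -0.12 and A_52_P343298 (chr7:88747163-88747222) by 0.20 (limma adjusted p = 0.884 and 0.774). Within slide 1 the 3 differences were -0.82, -0.52 and -0.34, and within slide 2 they were 0.40, 0.28 and 0.73. Without BTBR replicates 1 and 2, A_52_P343298 was higher in BTBR by 0.69 (limma adjusted p = 0.0173), while within slide 2 it was not called (limma adjusted p = 0.150). The other Homer2 probes, without these arrays, differed by 0.48 and 0.42 and were not called (limma adjusted p = 0.206 and 0.267).

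Homer3, the third long-form Homer, was read by A_51_P466613 (NM_011984, chr8:72817724-72817783), with 10.77, 10.39, 10.63 and 11.14 on the B6 arrays and 9.56, 9.79, 10.94 and 10.81 on the BTBR arrays. BTBR replicates 1 and 2 lay below all other arrays, and BTBR replicates 3 and 4 lay within the B6 range. The difference was -0.46 (95% confidence interval -1.19 to 0.27, limma adjusted p = 0.521, exact permutation p = 0.314), with -0.91 within slide 1 (limma adjusted p = 0.0366) and -0.01 within slide 2. Without BTBR replicates 1 and 2 it was 0.14.

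The scaffold probes thus varied among BTBR mice more than among B6 mice. The SD was larger in BTBR for 17 of the 21 probes (81.0%), against 66.7% of all tested probes, and at least 2 times larger for 11 (52.4%), against 29.3%. The median SD was 0.16 in B6 and 0.27 in BTBR over the 21 probes, and 0.11 and 0.14 over all probes. The strain difference differed between slides at an unadjusted limma p under 0.05 for 10 of the 21 (47.6%), against 9.93% of all probes. After adjustment it did so for none of the 21 (limma adjusted p of these 10 from 0.411 to 0.494) and for none of all tested probes. These 10 were the probes of Shank1, Dlg3 and Homer3, all 3 of Homer2, 3 of 4 of Homer1 and A_52_P153721 of Dlg4, so that several share a gene and all share the same arrays. For 7 of them BTBR minus B6 was below 0 on slide 1 and higher, in signed value, on slide 2, and for the 3 Homer1 probes it was above 0 on slide 1 and lower on slide 2. Both pairs of BTBR arrays left the B6 range on some of these probes, as on Homer2 A_51_P352303, where BTBR replicates 1 and 2 lay below and BTBR replicates 3 and 4 above all B6 arrays.

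Genes around these scaffolds were described by 6 lists with 92 tested genes in all, each counted once: 4 lists of binding partners, 1 of relatives of the Dlg family and 1 of genes that neuronal activity induces. Medians and counts of higher genes take the probe of highest intensity of each gene, whereas a gene was called by its probe of smallest p. Limma called 3 of the 92 higher and 2 lower in BTBR, where 10% of all tested gene names had a called probe (4.28% higher, 5.77% lower), and the median difference was -0.003 over the 92 and 0.01 over all genes. None of the 21 tested receptor and adhesion genes bound by the scaffolds was called (median -0.05), nor was any of the 13 Homer ligands (median -0.05).

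Among 13 tested relatives of the Dlg family, 1 rose and 1 fell (median 0.00). Mpp6, a membrane-associated guanylate kinase of the p55 group, had one probe that read 11.20, 11.09, 11.11 and 11.01 on the B6 arrays and 8.36, 8.26, 8.58 and 8.45 on the BTBR arrays, a difference of -2.69 (limma adjusted p = 1.74e-07). Its other probe differed by 0.19 and was not called, so the fall was seen with 1 of 2 probes. Magi1, a scaffold of cell junctions, rose by 0.95 on one probe (limma adjusted p = 0.00604), with 0.38 and -0.03 on its other probes.

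Among 15 tested SAPAP genes and Shank partners (median 0.01), Dlgap4, which encodes a SAPAP protein, fell by 0.38 (limma adjusted p = 0.00611), from 16.69 to 16.78 in B6 to 16.27 to 16.46 in BTBR. Its other probe differed by -0.22 and was not called. Among 17 tested genes for signaling and anchoring partners of PSD95 (median -0.03), Cript, which encodes a protein that binds the third PDZ domain of PSD95, rose by 1.82 on one probe (limma adjusted p = 6.06e-04) and differed by -0.13 on the other.

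The 14 genes that neuronal activity induces in hippocampus were listed beside Homer1. Of these, 12 were higher in BTBR without regard to a test, the median difference was 0.24 (0.01 over all genes), and limma called 1. This was Nptx2, a secreted pentraxin that gathers AMPA receptors, which rose by 0.92 (limma adjusted p = 0.0191), from 10.03 to 10.38 in B6 to 10.55 to 11.57 in BTBR. The mean level of the list was 11.98, 12.81, 12.67 and 12.13 on the B6 arrays and 13.18, 12.85, 12.14 and 12.10 on the BTBR arrays, and the strains overlapped. Both BTBR arrays lay above both B6 arrays on slide 1, but not on slide 2.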

How the data were processed

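Hippocampal RNA of 4 BTBR and 4 B6 mice was measured on single-color arrays with 45018 spots, 1 mouse per array, grouped by the strain in the labels. The authors labeled RNA with Cy3 and deposited raw spot intensity, with local background and flags, as Agilent Feature Extraction gave it (version 10.7.3.1 in the headers). The log2 matrix deposited by the authors had been background subtracted and quantile normalized with the median over replicate spots (41267 entries, array medians from 8.82 to 8.83, offset not stated), and was used as an alternative. Probe names, sequences and mm9 positions are those of the array files.

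For this report, each spot's median local background was taken from its mean intensity, and results below 0.5 were raised to 0.5. After adding 50, values were put on the log2 scale, quantile normalized, and reduced to 1 median per probe. Left out were controls, 154 probes flagged as outliers, and any probe that failed to be well above background on at least 75% of the arrays of a strain, which left 27982 probes with 18399 gene names, 22829 of them well above background on all arrays. In the main fit, strain alone was fitted with limma 3.58.1 in R 4.3.3, with Benjamini-Hochberg adjustment over all tested probes at 0.05. Values within a slide and contrasts between slides came from 1 limma fit of strain by slide to all 8 arrays. Each within-slide value thus sets 2 BTBR arrays against 2 B6 arrays, with the residual spread taken over both slides. The rank product, the test of the study, was written out with 100 permutations (pfp of 0.05 or less). Scripts were tested on simulated data. Nothing in the labels says more on the replicates than 1 mouse per sample. The limma p-values set a difference against the spread between these mice, in which the strain-only fit leaves any difference between slides.

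Genes were named by rule: all 10 scaffold genes with every probe, at most 3 called genes of smallest p per list, and the 3 closest to a called scaffold probe. Neighbors of Shank3, and the probes Dlg2 A_52_P1131821 and Homer1 A_52_P37991 in full, were chosen after their values were seen. The scaffold genes and all lists were chosen with earlier results of these data known. The marker lists were those of neurons, glutamatergic and GABAergic neurons, CA1, CA3, dentate granule cells, astrocytes, oligodendrocytes, microglia, endothelium, thalamus, choroid plexus, meninges, striatum, pituitary and blood. Alternatives covered the signal column, background correction, normalization, filters, blocks, thresholds, slides and each array left out. Proteins and the qRT-PCR were not analysed here.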

Additional observations from a re-analysis of the deposited data

Results flagged for a closer look

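In the B6 group the Homer2 probe A_51_P352303 had 1 array far from the other 3. B6 replicate 2 read 12.56 where the others read 12.89 to 12.91, and its gap took up 0.933 of the range of the group, above Dixon's critical value at 95% for 4 samples. This was 1 of 42 such gaps examined over the 21 scaffold probes in both strains, and chance flags about 1 in 20 groups.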

How the results depend on the processing

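Shank3 was called by limma in all 23 alternatives, with differences from 0.56 to 0.73 (0.59 to 0.69 with 1 array left out). The number of scaffold probes called by limma was 1, between 1 and 2 with 1 array left out (Dlg2 was added without BTBR replicate 2), 4 within slide 1 (with Dlg4, Homer1 and Homer3) and 3 without BTBR replicates 1 and 2 (with Dlg2 and Homer2), an alternative chosen after seeing the data. Over all probes limma called 2422 within slide 1 and 1571 without BTBR replicates 1 and 2. The rank product count of 2 became 0 with the processed signal, 1 without BTBR replicates 1 and 2, and 0 to 2 with 1 array left out, 0 being without B6 replicate 2. The 1 without BTBR replicate 2, or without BTBR replicates 1 and 2, was Dlg2 A_52_P1131821, and both Shank3 and Homer1 were lost there. The rank product called Shank3 in 8 of 16 alternatives and Homer1 A_52_P37991 in 11. The count of called probe pairs became 2 with the processed signal, 0 with median centring, the replicate block, an adjusted p under 0.01 or without BTBR replicates 1 and 2, and 0 to 3 with 1 array left out. The called pairs changed as well. The Dlg2 pair was not among the 2 with the processed signal, nor among those called without B6 replicate 3 or BTBR replicate 3. The Dlg2 pair difference lost its call at 0.68 with the processed signal (limma adjusted p = 0.0702), 0.51 with median centring (0.0650), 0.68 without BTBR replicates 1 and 2 (0.0512) and, at 0.56, under the threshold of 0.01, with 0.47 to 0.67 when 1 array was left out. The 5 called partner genes became 8 with slide as a block or at an adjusted p under 0.1, 22 within slide 1 (where 11.6% of all gene names had a called probe), and 4 to 9 with 1 array left out, 9 being without BTBR replicate 3 or 4. Over all probes limma called 2129, but 1196 at an adjusted p under 0.01 and 1036 within slide 2. The cause of these shifts was not tested.

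Arrays with the same replicate number did not deviate together in every pair (r from -0.14 to 0.51), so the numbers were not taken to pair mice. With the replicate block limma called 1650 probes, Shank3 kept its call (adjusted p = 0.0106), and the Dlg2 pair difference of 0.56 did not pass (adjusted p = 0.0900).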

Other observations

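Called genes of the cell type and region marker lists are given here beside the 10% of all tested gene names that had a called probe in limma. Of the 8 neuron markers, 3 were lower in BTBR, with Nefl at -1.93 (both its probes called), Syt1 at -0.71 (1 of 6 probes, the others from -0.29 to 0.03) and Map2 at -0.35 (1 of 3, the others -0.07 and -0.25). Limma called 1 of the 7 astrocyte markers, Gfap at -1.30 (3 of 3 probes), and 1 of the 3 tested CA3 markers, Cpne4 at -1.49 (1 of 3 probes, the others -0.82 and -0.26). It called 2 of the 7 microglia markers, Cx3cr1 at 1.41 (other probe -0.10) and Itgam at -0.40 (other probe -0.05), and 2 of the 7 meningeal markers, Slpi at 2.03 and Igf2 at 1.24 (other probe 1.29, not called). None was called by limma among the markers of glutamatergic neurons (6), GABAergic neurons (6), CA1 (5), dentate granule cells (6), oligodendrocytes (7), endothelium (5), thalamus (8), choroid plexus (6), striatum (6), pituitary (6) or blood (2).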
